A study of Homo sapiens with 10 samples.

Results

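The genes described here are the granins and the enzymes and helper proteins that turn prohormones into peptides, measured in SH-SY5Y cells with and without paraquat. They were chosen by name, as 10 genes: CHGA, CHGB, SCG2, SCG3, SCG5, VGF, PCSK1, PCSK2, CPE and PCSK1N. The choice was made with earlier results of these data known. A gene counted as measured where the expression table held a row annotated to that symbol alone, and 8 of the 10 genes had such a row, with 1 row each, among 14232 genes with a symbol of their own and 22011 rows in all. The convertase genes PCSK1 and PCSK2 had no such row, so their expression was not analysed here.

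SH-SY5Y is an established human neuroblastoma line that models sympathetic, catecholamine-handling neurons. Total RNA was hybridised to 10 Affymetrix exon arrays. Untreated cells gave 5 of them, called controls 7, 11, 13, 17 and 19 after their titles, and the other 5, called paraquat 8, 12, 14, 18 and 20, came from cells given paraquat, a herbicide whose redox cycling inside cells yields superoxide. All arrays share this 1 line and no genetic change is named for either group, and no dose or time of treatment was given in the labels. Values are the authors' log2 RMA expression values, so a difference of 1 is a doubling of signal. No label says that the 5 arrays of a group are separate cultures, and p-values therefore reflect only array-to-array spread, possibly technical.

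Granins are acidic proteins that aggregate with calcium in the trans-Golgi network and help to form dense-core vesicles, the organelles that store catecholamines and peptide hormones until a stimulus releases them. Many granins are also precursors: convertases cut them and other prohormones after pairs of basic residues, carboxypeptidase E trims the exposed basic residues, and small binding proteins hold the convertases back or help them to fold. In chromaffin cells and sympathetic neurons, granins are packed with noradrenaline, and chromogranin A is used as a marker of neuroendocrine tumours, neuroblastoma among them.

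Paraquat split the family. VGF rose 4.75-fold and SCG2 4.15-fold, while CHGA fell to a level 3.16-fold lower, PCSK1N 1.62-fold lower and CHGB 1.43-fold lower. SCG3, SCG5 and CPE did not pass the test. By limma with Benjamini-Hochberg adjustment over all rows, at an adjusted p under 0.05, 2 of the 8 measured genes rose and 3 fell, where 9.55% of all genes rose and 14.2% fell. That is 5 of 8 against 23.8% of genes that passed in either direction. Because the genes were chosen with earlier results of these data known, the gap between these shares is not an unbiased comparison.

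Promoter sequence is shown for the genes at both ends of this split, because several granin genes are known to be driven through a cAMP response element, the 8-base site TGACGTCA, close to the gene start. RefSeq windows (GRCh38.p14) of the 250 bases before the start were found for 6 of the 8 measured genes, and SCG2 and CHGB had none in the table used. The full element stood in 2 of the 6, VGF and CHGA, against 1.65% of 35116 windows of all genes, and these are the gene with the largest rise and the gene with the largest fall. A window of PCSK1, which had no expression value, also held the full element, 77 to 70 bases before the start. SCG2, with the second largest rise, could not be searched. Any link of the element to the changes was not tested. The motif was chosen for its known role in granin genes, so its share here is not independent evidence of that role. In VGF the full element lay 79 to 72 bases before the start, and in CHGA 54 to 47 bases before it. PCSK1N, which also fell, held no full element and no partial one (its first 5 bases, TGACG), but a match to the AP-1 site TGACTCA on the reverse strand, 246 to 240 bases before the start, a motif in 4.2% of all windows. Each sequence is printed 5′ to 3′ on the gene's strand, in lower case, with these matches in capitals, for VGF at chr7:101165570-101165819 (minus strand), CHGA at chr14:92922900-92923149 (plus strand) and PCSK1N at chrX:48835611-48835860 (minus strand).
VGF: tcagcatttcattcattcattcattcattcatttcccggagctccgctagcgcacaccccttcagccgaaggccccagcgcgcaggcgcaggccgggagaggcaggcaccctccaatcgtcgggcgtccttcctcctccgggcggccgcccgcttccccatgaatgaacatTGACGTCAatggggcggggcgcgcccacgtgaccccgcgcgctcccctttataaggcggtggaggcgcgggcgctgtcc
CHGA: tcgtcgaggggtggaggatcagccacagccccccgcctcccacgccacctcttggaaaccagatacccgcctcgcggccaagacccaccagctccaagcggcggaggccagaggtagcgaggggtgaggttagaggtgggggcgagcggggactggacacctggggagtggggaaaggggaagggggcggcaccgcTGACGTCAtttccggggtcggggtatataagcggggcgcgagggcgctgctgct
PCSK1N: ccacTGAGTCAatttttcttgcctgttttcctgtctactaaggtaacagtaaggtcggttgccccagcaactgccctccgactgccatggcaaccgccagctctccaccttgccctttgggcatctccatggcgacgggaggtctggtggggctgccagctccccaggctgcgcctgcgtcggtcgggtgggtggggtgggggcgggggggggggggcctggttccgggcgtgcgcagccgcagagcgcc

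Of the other windows, CPE held 2 partial elements and SCG5 held 1, a motif present in 21.2% of all windows, and SCG3 held none. The partial element is contained in the full one, so the VGF and CHGA windows hold it on both strands at that position. E-boxes (CANNTG), bound by basic helix-loop-helix factors, occurred in all 6 windows and in 61.8% of windows overall. Both strands were searched. A match is a description of the letters and was not tested as a binding site.

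**Figure D1:**
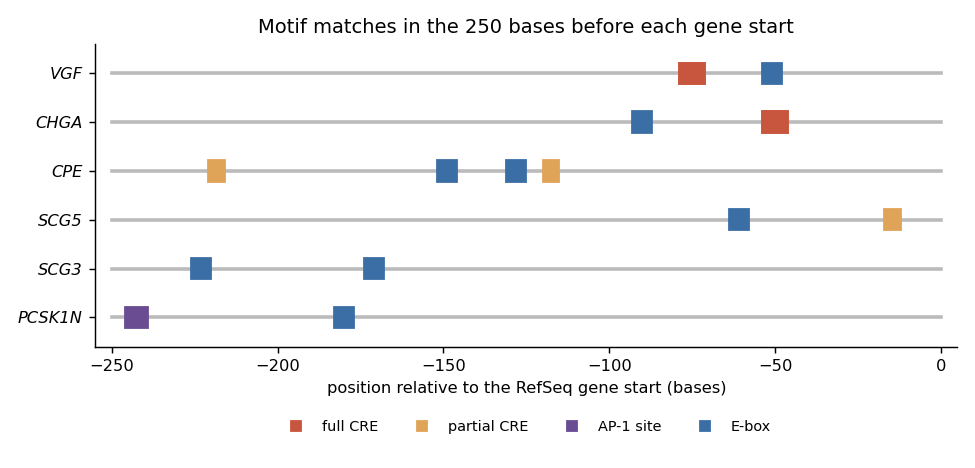
Positions of motif matches in the 250 bases before the RefSeq start of 6 genes, with distance from the start in bases on the x axis and 1 line per gene; boxes mark the full cAMP response element (CRE), partial elements outside a full one, AP-1 sites and E-boxes. The full element is seen only in VGF and CHGA, between 79 and 47 bases before the start.

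The granins VGF and SCG2 both rose. VGF is a neurotrophin-inducible precursor of several secreted peptides. Its values (transcript cluster 3064462) were 8.61, 8.996, 9.24, 8.65 and 9.15 in controls 7, 11, 13, 17 and 19, and 10.64, 11.31, 11.47, 11.19 and 11.30 in paraquat 8, 12, 14, 18 and 20. Every paraquat array lay above every control, and paraquat 8 was the lowest of its group. The mean went from 8.93 ± 0.28 to 11.18 ± 0.32 (log2, SD, n = 5 arrays each), a log2 change of 2.25 ± 0.17 (SE, limma adjusted p = 8.47e-06). A rise that passed and was at least as large was found in 50 genes, VGF included, or 0.351% of all genes.

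SCG2 encodes secretogranin II, the precursor of secretoneurin. The SCG2 row (transcript cluster 2601230) read 5.63, 6.76, 5.49, 5.13 and 5.50 in the controls, in the same order, and 7.67, 8.33, 8.02, 7.33 and 7.41 in the paraquat arrays. The groups did not overlap, although control 11 stood more than a doubling above each of the other 4 controls, and paraquat 12 was the highest of all. The mean went from 5.70 ± 0.62 to 7.75 ± 0.42 (SD, n = 5 each), a log2 change of 2.05 ± 0.29 (SE, limma adjusted p = 0.000576). A rise that passed and was at least this large was found in 65 genes, SCG2 included, or 0.457% of all genes. Without control 11 the change was 2.32, the highest value with 1 array left out. The control values lay below the array medians, which ran from 6.78 to 6.93, and the paraquat values above them.

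The chromogranins went the other way. CHGA encodes chromogranin A, the founding granin and a driver of dense-core vesicle formation. Its row (transcript cluster 3549092) gave 8.86, 8.56, 9.12, 9.005 and 9.27 in the controls and 7.34, 6.97, 7.22, 7.32 and 7.66 in the paraquat arrays. The lowest control was well above the highest paraquat array, and control 11 and paraquat 12 were the lowest of their groups. The mean went from 8.96 ± 0.27 to 7.30 ± 0.25 (SD, n = 5 each), a log2 change of -1.66 ± 0.15 (SE, limma adjusted p = 3.03e-05). A fall that passed and was at least as large was found in 64 genes, CHGA included, or 0.45% of all genes.

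CHGB encodes chromogranin B, the second acidic core protein of chromaffin vesicles. Its values (transcript cluster 3875179) were 9.36, 9.54, 9.04, 9.28 and 9.67 in the controls and 8.59, 8.93, 8.72, 8.99 and 9.07 in the paraquat arrays. The groups overlapped at one point only, with control 13 just under paraquat 20. The mean went from 9.38 ± 0.24 to 8.86 ± 0.20 (SD, n = 5 each), a log2 change of -0.52 ± 0.14 (SE, limma adjusted p = 0.0195). The call ended after quantile normalization (adjusted p = 0.0528) and without both control 11 and paraquat 12 (adjusted p = 0.0537).

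The signal of CHGA fell more than that of CHGB on the same arrays. Within an array, the CHGA value minus the CHGB value was -0.50, -0.98, 0.08, -0.27 and -0.40 in the controls and -1.25, -1.96, -1.50, -1.67 and -1.41 in the paraquat arrays. All paraquat differences lay below all control differences. Their mean moved by -1.14, or 2.21-fold (exact two-sided permutation test over arrays, p = 0.00794, the lowest p possible with 5 arrays a group). The difference shows unequal change of signal and says nothing of which gene is the more abundant. Whether the probes of the 2 genes respond equally to a change was not tested. Of 4 such pairs set for testing this was the 1 that could be computed, since the others involved PCSK1 or PCSK2.

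SCG3 encodes secretogranin III, which binds chromogranin A and cholesterol-rich vesicle membrane. The SCG3 values (transcript cluster 3594003) were 4.78, 5.43, 5.18, 4.95 and 4.78 in the controls and 5.29, 4.78, 5.22, 4.91 and 5.08 in the paraquat arrays. The groups covered nearly the same range, and the log2 change was 0.03 ± 0.15 (SE, limma adjusted p = 0.918), with a 95% confidence interval of -0.29 to 0.36. All values were below the array medians, the row was among the dimmest 33.3% of the table, and RMA draws such weak signals together.

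**Figure D2:**
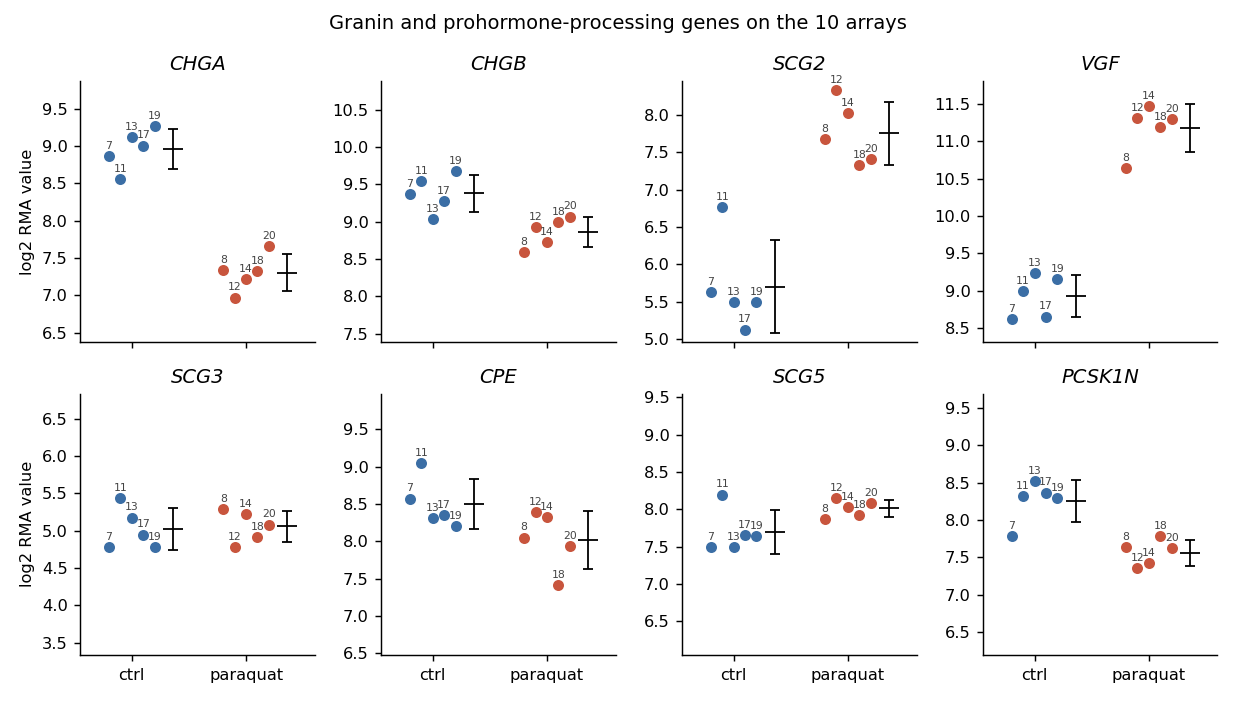
The log2 RMA value (y axis, each panel spanning the same number of log2 units) of the 8 measured genes on each array; blue points are controls, red points paraquat arrays, small digits the array numbers, and the black bars the mean and SD of 5 arrays. VGF and SCG2 are higher and CHGA and PCSK1N lower on every paraquat array than on any control, and control 11 lies apart from the other controls for SCG2 and SCG5.

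The measured genes of prohormone processing are 1 enzyme and 2 binding proteins of the convertases. PCSK1N encodes proSAAS, a granin-like inhibitor of the convertase made from PCSK1. Its values (transcript cluster 4007550) were 7.79, 8.32, 8.52, 8.37 and 8.29 in the controls and 7.63, 7.35, 7.42, 7.78 and 7.63 in the paraquat arrays. The groups did not overlap, but control 7, the lowest control, was within 0.01 of paraquat 18. The mean went from 8.26 ± 0.28 to 7.56 ± 0.17 (SD, n = 5 each), a log2 change of -0.69 ± 0.14 (SE, limma adjusted p = 0.00476).

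SCG5 encodes a chaperone and inhibitor of the convertase made from PCSK2. On its row (transcript cluster 3587495) values were 7.49, 8.20, 7.49, 7.65 and 7.64 in the controls and 7.87, 8.15, 8.03, 7.93 and 8.08 in the paraquat arrays. Control 11 was the highest of all 10 arrays, and each of the other 4 controls was below each paraquat array. The log2 change of 0.32 ± 0.13 (SE) did not pass with all arrays (limma adjusted p = 0.133). Without control 11 it was 0.44 and passed (limma adjusted p = 0.00525), as it did with array weights (0.41, adjusted p = 0.00894). These fits are not separate support, since control 11 had the lowest array weight of all (0.358). With any other single array left out, the SCG5 change did not pass (limma adjusted p from 0.138 to 0.263).

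CPE encodes carboxypeptidase E, which removes the basic residues that convertases leave at the end of a peptide. The CPE row (transcript cluster 2750627) read 8.57, 9.04, 8.31, 8.35 and 8.20 in the controls and 8.05, 8.39, 8.32, 7.41 and 7.93 in the paraquat arrays. The groups overlapped, with control 11 the highest of all and paraquat 18 the lowest. The log2 change of -0.47 ± 0.21 (SE) did not pass (limma adjusted p = 0.144), and its 95% confidence interval, from -0.93 to -0.02, leaves its size poorly fixed. The interval is for 1 gene, without adjustment over all rows, so it need not match the adjusted call.

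Taking the 8 genes by their spread, the groups did not overlap in 4, with 2 higher and 2 lower after paraquat, where 8.34% of all genes were without overlap and higher and 11.6% without overlap and lower. Control 11 was the highest control in 4 of the 8 genes (SCG2, SCG3, SCG5 and CPE) and the lowest in CHGA. Paraquat 12 was the highest paraquat array in SCG2, SCG5 and CPE and the lowest in CHGA, SCG3 and PCSK1N. Both arrays stand apart on the second principal component of the whole table, with scores of -49.0 and -27.9 against -6.85 to 24.0 for the rest. Without both, 3 of the 8 genes rose, SCG5 joining VGF and SCG2, and 2 fell, CHGA and PCSK1N. In bulk RNA such as this, fewer cells of a type and less RNA per cell cannot be told apart.

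**Figure D3:**
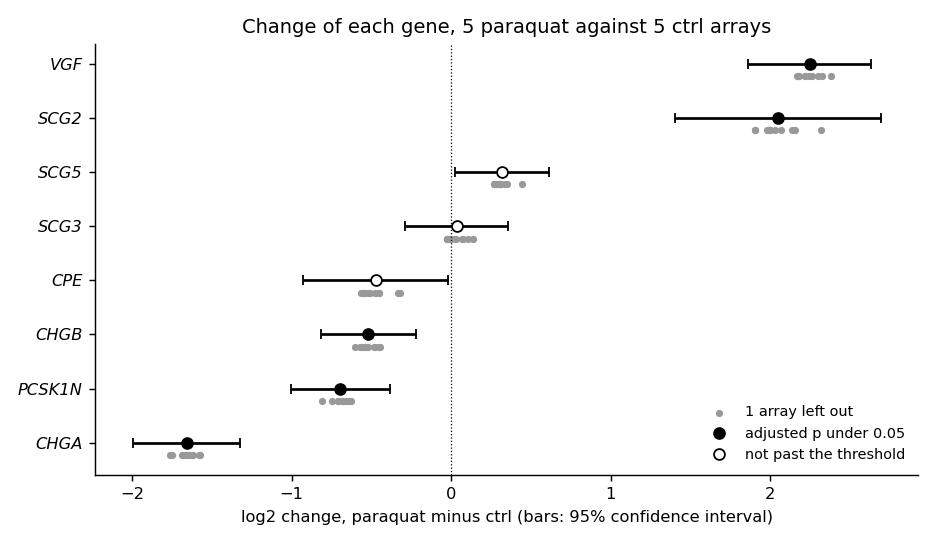
The log2 change, paraquat minus control, of the 8 measured genes (x axis), with 95% confidence intervals from the limma model; filled points passed at an adjusted p under 0.05, open points did not, and grey points are the estimates with 1 of the 10 arrays left out. VGF (2.25) and SCG2 (2.05) lie far to the right, CHGA (-1.66) far to the left, and SCG3 (0.03) on the zero line. The intervals are per gene and not adjusted over all rows, and those of SCG5 and CPE miss the zero line although neither gene passed.

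Genes around this family were counted from lists made with earlier results of these arrays known, and they are described by counts and medians only, beside a median log2 change of -0.0041 over all genes. Of 16 measured other convertases and peptide-modifying enzymes, 3 rose and 3 fell, at a median of 0.02, where 9.55% of all genes rose and 14.2% fell. Prolyl endopeptidase, PREP, which cuts peptides after proline, had a log2 change of -0.75 ± 0.13 (SE, limma adjusted p = 0.00163), and CPD, a trans-Golgi carboxypeptidase related to CPE, had -0.48 ± 0.12 (adjusted p = 0.0147). The lysosomal protease CTSB rose by 0.54 ± 0.12 (adjusted p = 0.00943), and the surface carboxypeptidase CPM by 0.36 ± 0.11 from a very dim control mean of 2.89 (adjusted p = 0.0415). FURIN, the ubiquitous Golgi convertase, also rose, by 0.35 ± 0.10 (adjusted p = 0.0285). The amidating enzyme PAM, which finishes many neuropeptides, had a log2 difference of 0.10 ± 0.21 (adjusted p = 0.806, not past the threshold), and FURIN and PAM were singled out after their values were seen. The number raised was 1 without control 7, 11, 17 or 19 or without paraquat 18 or 20.

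Of the substrates, 26 neuropeptide precursors were measured, of which 4 rose and 1 fell, at a median of 0.04, beside 9.55% and 14.2% of all genes. ADM, the precursor of the vasodilator adrenomedullin, rose by 1.69 ± 0.14 (SE, limma adjusted p = 1.06e-05) and its relative ADM2 by 0.88 ± 0.13 (adjusted p = 0.000845). Galanin, GAL, rose by 0.90 ± 0.17 from a control mean of 10.68 (adjusted p = 0.00286), while neuromedin U, NMU, fell by 1.12 on the log2 scale (adjusted p = 0.00167). The fourth that rose was NPY, by 0.37 ± 0.12 (adjusted p = 0.0479), a value close to the threshold. With 1 array left out, 3 to 4 rose and 1 fell, and with array weights 5 rose.

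Genes that build, load and release dense-core vesicles fell in 10 of 33 measured cases (14.2% of all genes) and rose in 2 (9.55% of all genes), at a median of -0.20, and 7 to 11 fell with 1 array left out. The largest falls were in SYT4, a synaptotagmin of dense-core vesicles (-1.28 ± 0.19), SLC18A1, the vesicular monoamine transporter of chromaffin cells (-1.27 ± 0.23), CYB561, which carries electrons into the vesicle for noradrenaline synthesis (-1.24 ± 0.13), and ICA1, which takes part in vesicle budding (-1.01 ± 0.13), with limma adjusted p-values of 0.000705, 0.00291, 7.51e-05 and 0.000301. The 2 that rose were the plasma membrane SNARE STX1A (0.39) and the second monoamine transporter SLC18A2 (0.34), a dim row with a control mean of 4.78. The number raised was 1 without control 7, 11 or 17, without paraquat 14, 18 or 20, or without the dimmest rows. It was 3 without paraquat 12.

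Of 14 measured regulators known or proposed to act on granin and neuroendocrine genes, 2 rose and 2 fell, at a median of 0.06, counts near the shares of all genes (9.55% and 14.2%). EGR1, an immediate early transcription factor, rose by 4.12 ± 0.22 (SE, limma adjusted p = 6.95e-07), and CREM, which encodes activators and repressors at cAMP response elements, rose by 0.97 ± 0.22 (adjusted p = 0.00973). PROX1, a homeobox factor, fell by 1.71 on the log2 scale (adjusted p = 0.00022) and SP1, which binds GC-rich promoters, fell by 0.55 (adjusted p = 0.00265). REST, the repressor of neuronal genes, had a change of 0.16 ± 0.13 (adjusted p = 0.449), and CREB1, which binds the cAMP response element, had 0.32 ± 0.11 (adjusted p = 0.0566); both were singled out after their values were seen. The number raised was 4 after median centring, after quantile normalization, with array weights, without the dimmest rows and without paraquat 12.

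**Figure D4:**
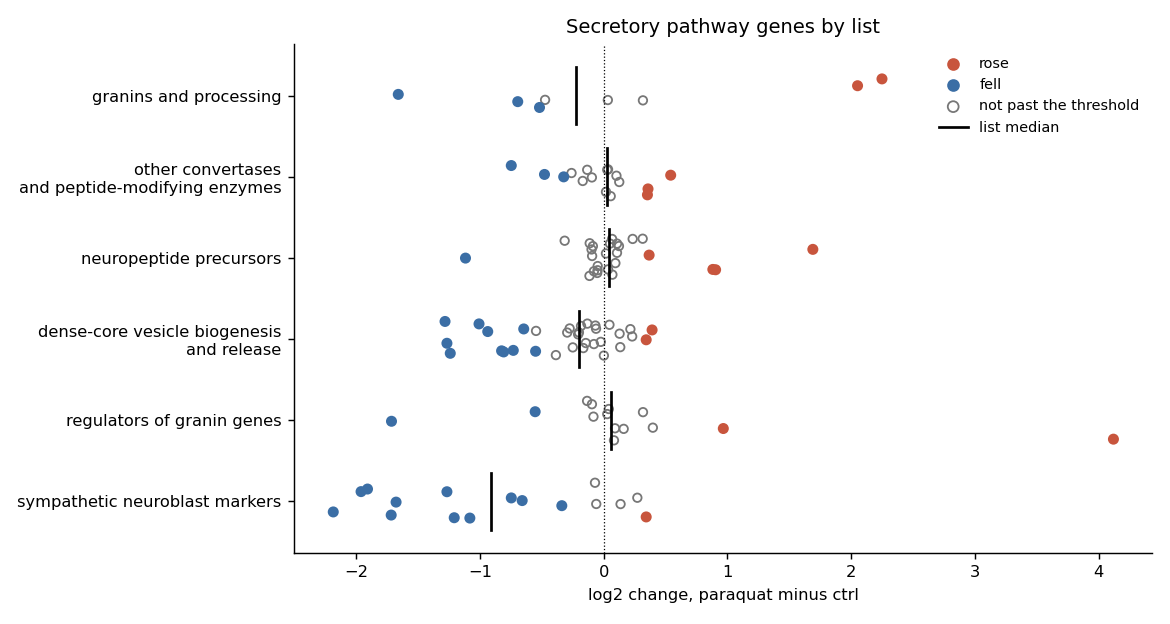
Log2 change, paraquat minus control (x axis), of each measured gene of 6 lists; filled points passed at an adjusted p under 0.05 (red rose, blue fell), open points did not pass, the vertical spread of points within a list has no meaning, and the black bar is the list median. The granins reach from -1.66 to 2.25, while 10 of 33 genes of dense-core vesicle biogenesis and release and 11 of 16 sympathetic markers lie among those that fell.

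The label of the cells was compared with markers. Over all genes, 9.55% rose and 14.2% fell. The mean over 16 measured sympathetic neuroblast markers lay between 8.79 and 9.04 on each control array and between 7.97 and 8.11 after paraquat. Of the 16, 11 fell and 1 rose. The largest falls were in HAND1 (-2.19), TFAP2B (-1.96), GATA2 (-1.91) and SLC6A2 (-1.72), which are 3 transcription factors and the transporter that takes up noradrenaline. The 1 that rose was SLC18A2 (0.34), a dim row with a control mean of 4.78, absent from the fit without the dimmest rows. TH (-0.06), PRPH (-0.07), ELAVL3 (0.14) and MYCN (0.27) did not pass. The control means of TH (6.31) and PRPH (6.40) lay below the array medians. SLC18A1 and SLC18A2 are in this list and in the vesicle list. The mean over 13 mesenchymal markers was 7.39 to 7.62 in the controls and 8.05 to 8.47 after paraquat. Of them, 5 rose and 1 fell. The largest rises were in FOSL2 (2.17), SNAI2 (1.97), TGFBI (1.93) and CCN1 (1.83), and TWIST1 fell (-0.59, limma adjusted p = 0.00383). COL1A1 and COL3A1 were lower and VIM, FN1, PRRX1, YAP1 and CCN2 higher in mean, none past the threshold. Without control 11, 7 rose and 3 fell. The number that fell was 2 without control 7 or paraquat 14, and 3 with array weights or without the dimmest rows. Of 7 glial markers 1 fell, FABP7 (-0.55, from a dim control mean of 3.56), with list means of 4.42 to 4.79 in the controls and 4.31 to 4.72 after paraquat; the number that fell was 0 without control 7, 17 or 19 or without paraquat 8, 12, 14 or 20, and 2 without control 11. Of 5 leukocyte markers CD68 (1.33) and CD14 (0.64) rose, with list means of 4.30 to 4.48 and 4.71 to 4.87, while the defining marker PTPRC had group means of 2.67 and 2.72, among the dimmest rows. The part of these marker shifts in the granin changes was not tested.

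The genes whose profile over the 10 arrays was most like that of VGF, by Pearson's r, were FXR2, an RNA-binding protein, ATF3, a stress-induced transcription factor, CSRP1, a LIM-domain protein, IL11, a cytokine, and SLC3A2, the heavy chain of amino acid exchangers, with r from 0.988 to 0.991. Those most like CHGA were ISL1, a LIM homeobox factor of sympathetic and motor neurons, ESPL1, the protease separase, EEF2K, a kinase of elongation factor 2, GRK5, a receptor kinase, and LAMP5, a lysosome-associated membrane protein, with r from 0.985 to 0.993. Pearson's r ignores the size of a change, and the log2 change was 0.36 in FXR2 and 3.46 in ATF3, against 2.25 in VGF. Since the arrays form 2 groups, these r values mostly restate that a gene differs between the groups with little spread within them, and no p is given.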

How the data were processed

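Log2 values were made by the authors with RMA, per the submitters' processing notes, and deposited as 1 table. RMA applies background subtraction, equalisation of arrays and a summary of probes, here as 1 value per transcript cluster. No filter, software version or genome build was given in the sources used here. The log2 scale was inferred from values between 1.07 and 14.37. The annotation gave 1 symbol to 14432 rows, several to 2408 and none to 5171. A gene was represented by its single-symbol row with the highest mean. Symbols were updated by gene identifier for 14404 rows through RefSeq (GRCh38.p14).

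All 22011 rows were fitted without filter in limma 3.58.1 under R 4.3.3, with group as the only term. Tests were two-sided, with Benjamini-Hochberg adjustment over all rows and a threshold of 0.05. The model had 8 residual and 3.06 prior degrees of freedom, and the median SE of a log2 change was 0.13, the number of arrays limiting the precision. The fit was checked on simulated data with independent normal noise in each row and known changes. Such data hold no shift shared by the rows of an array, so the check does not cover one. The pair difference used an exact permutation test over arrays (Python 3.11.15). Array weights, median centring, quantile normalization, an intensity trend, removal of the dimmest 33.3% of rows and omission of arrays were tried as alternatives.

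The members and lists were chosen with earlier results of these data known. All members are named; of each other list, up to 4 passing genes with the largest absolute change, or up to 2 where none passed, and the 5 genes most like VGF and CHGA. FURIN, PAM, NPY, STX1A, SLC18A2, REST, CREB1 and PTPRC were named after their values were seen. So were TH, PRPH, ELAVL3, MYCN, TWIST1, COL1A1, COL3A1, VIM, FN1, PRRX1, YAP1 and CCN2.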

Additional observations from a re-analysis of the deposited data

Results flagged for a closer look

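The SCG5 value of control 11 stood apart from the other controls. It was 8.196, against 7.492 to 7.65 on the other 4, a gap of 0.775 of the group's range where 0.71 is the critical value of Dixon's test for 5 arrays. Of 18 groups of values examined in this way, for 8 genes and 1 pair difference, this was the 1 that passed, and chance gives about 1 in 20. Its effect on the SCG5 call is given with that gene.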

How the results depend on the processing

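VGF, SCG2, CHGA and PCSK1N kept their direction and stayed past the threshold under all 16 alternative fits, with log2 changes of 2.17 to 2.39, 1.91 to 2.32, -1.76 to -1.58 and -0.81 to -0.63. CHGB was -0.47 after quantile normalization and -0.50 without both control 11 and paraquat 12, and passed in neither case; the cause was not tested. With 1 array left out it ran from -0.60 to -0.44 and passed each time, the largest adjusted p being 0.0464, and at an adjusted p under 0.01 the number that fell was 2. The smallest CHGB change among the fits was -0.38, with array weights (limma adjusted p = 0.0456). SCG5 passed with array weights (0.41), without both arrays (0.41) and without control 11, all fits that drop or down-weight control 11. Its change ran from 0.27 to 0.44 with 1 array left out. SCG3 was -0.027 after quantile normalization and -0.028 to 0.14 with 1 array left out, and as a dim row it was absent from the fit without the dimmest rows. CPE did not pass in any of the 16 fits (adjusted p from 0.0614 to 0.287). The exact permutation test over arrays gave p = 0.00794 for VGF, SCG2, CHGA and PCSK1N, 0.0159 for CHGB, 0.0635 for SCG5, 0.0714 for CPE and 0.817 for SCG3. The CHGA minus CHGB difference ran from -1.28 to -1.02 with 1 array left out. Each measured gene had 1 row, so a mean over rows changed nothing. The 3 pair differences that need PCSK1 or PCSK2 were not run. The array numbers run consecutively across the groups (7 and 8, 11 and 12, 13 and 14, 17 and 18, 19 and 20), but no label says that they mark pairs, and no paired fit was run. The number of arrays and the dimness of the SCG3 row limit what could be detected.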
